A study of Mus musculus with 6 samples.

Results

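The genes described here build the junctions that hold ventricular cardiomyocytes together and to the matrix. A list of 43 symbols was used, which covers the desmosome, the adherens and other junctions, the gap junction, the dystrophin complex, the costamere and focal adhesion, and the nuclear lamina gene Lmna. Of these, 41 had at least 1 probe set that named a single gene, out of 18193 genes measured in all, and Gjd3 and Ptk2 were not analysed here. The ventricles came from 3 COUP-TFII-overexpressing mice (OE, Myh6-MCM; CAG-S-COUP-TFII) and 3 control mice (CTRL, Myh6-MCM), each on an Affymetrix mouse genome array of its own. Every mouse, CTRL included, carried the tamoxifen-activated Cre recombinase Myh6-MerCreMer, which the Myh6 promoter drives in cardiomyocytes, and every mouse received tamoxifen at 40 mg/kg/day for 3 days. Whole ventricles were taken 16 days after the first dose from mice of a mixed 129SvEv/C57Bl6/J background, whose age the labels give as 2.5 months and the study's methods as 2 months. The groups therefore differed in genotype by the CAG-S-COUP-TFII allele, which expresses COUP-TFII once Cre has acted. They also differed in the state of the heart. The study reports that OE hearts were by then severely dilated and contracted poorly, which it likens to end-stage dilated cardiomyopathy. The allele and the failing heart went together in this comparison, and their separate parts in the changes below were not tested. The other cell types of the ventricle were on the arrays but not targeted.

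Cardiomyocytes meet end to end at the intercalated disc. There, desmosomes tie the intermediate filament desmin of neighbouring cells together, adherens junctions tie their actin filaments, and gap junctions let current pass. Along the side of the cell, the dystrophin complex and the costameres, which resemble focal adhesions, join the Z-discs through the membrane to laminin and other matrix proteins, and inherited loss of many of these proteins causes cardiomyopathy or arrhythmia.

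The values are log2 signals relative to the median of the 6 arrays for each probe set, so no expression level can be read from them and no gene can be ranked above another. The 2 middle arrays of a probe set lie at equal distances on both sides of 0 for the same reason. Below, the 3 values of a group are in the order of replicates 1, 2 and 3, and a change is the mean of OE minus the mean of CTRL on the log2 scale with its standard error. A gene was called higher or lower where limma's p-value, adjusted by Benjamini-Hochberg over all 18193 genes, was under 0.05. Whole ventricle cannot tell fewer cells of a type from less RNA per cell.

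The overexpressed gene was checked first. One of the 6 probe sets of Nr2f2, which encodes COUP-TFII, read 1.72, 1.60 and 1.92 in OE ventricles and -1.99, -1.60 and -1.65 in CTRL ventricles, a change of 3.49 ± 0.13 (SE, n = 3 each, limma adjusted p = 2.57e-05). The other Nr2f2 probe sets changed by -0.34 to -0.13 with adjusted p of 0.075 or more, and which of the 6 probe sets lie in the part of the transcript that the transgene carries is not given in the sources used here. The root mean square difference between arrays over all genes was 0.375 to 0.427 between an OE and a CTRL array, 0.194 to 0.215 between 2 OE arrays and 0.208 to 0.233 between 2 CTRL arrays. No array stood apart from its group on this measure.

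Junction genes moved in both directions. Of the 41 measured members, 9 rose, 11 fell and 21 were not called, so that 48.8% of the members passed the test beside 26.7% of all genes. The number that fell was 6 without CTRL 1 or without CTRL 2, and 7 without OE 3 or with the one-way analysis of variance named in the study's methods. Rises made up 22.0% of the members, against 14.9% of the genes tested, and falls 26.8%, against 11.8%. The 3 OE values did not overlap the 3 CTRL values for 25 members (13 above and 12 below), or 61.0% of them, beside 45.6% of all genes. The median change of the members was -0.04 and that of all genes -0.03, while the median size of the change regardless of sign was 0.25 for members and 0.17 for all genes. No filter on expression was applied, so all genes include any that the ventricle does not express. The members were also chosen with earlier results of these data known, and the differences from all genes were not tested. The called members that changed more than 2-fold were Dsc2, Sntb1 and Cdh11 (3 genes). The split between directions depended on the scaling, among the members and among all genes alike. Of 43 ribosomal protein genes, 16 were called higher and 1 lower, with a median change of 0.21. Centred on them, the median of all genes was -0.25. With that centring 9 members were higher and 21 lower, while of all 18193 genes 1306 were higher and 9217 lower. None of the 20 calls was lost under that centring, and the added ones were all lower in OE. Among the members not called, 7 turned from a positive to a negative change with it (Pkp4, Ctnna1, Gjc1, Utrn, Sgcd, Sgce and Fermt2).

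**Figure D1:**
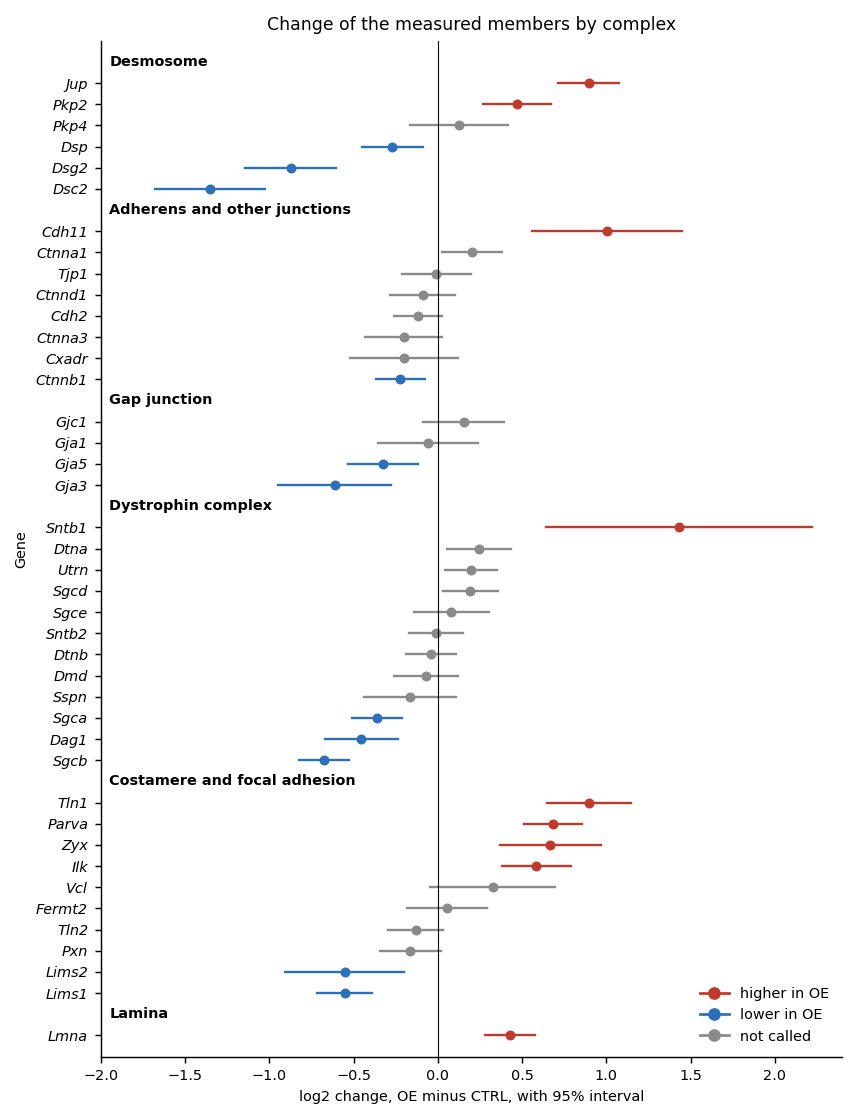
The log2 change (OE minus CTRL) of the 41 measured members on the horizontal axis, grouped by complex and ordered by size within it, with the unadjusted 95% interval of the limma fit as a bar. Red marks the 9 genes called higher in OE, blue the 11 called lower and grey the 21 not called; the desmosome holds changes from 0.89 for Jup to -1.35 for Dsc2.

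The listed desmosomal cadherins Dsc2 and Dsg2 fell, while 2 of the plaque proteins that bind such cadherins rose. Of the 6 desmosome members, 2 were higher (Jup and Pkp2) and 3 lower (Dsc2, Dsg2 and Dsp) in OE ventricles. Among all genes, 14.9% were called higher and 11.8% lower. Dsc2, desmocollin, and Dsg2, desmoglein, are the cadherins that reach across the gap between the cells. Dsc2 read -0.64, -0.48 and -1.002 in OE ventricles, against 0.71, 0.76 and 0.46 in CTRL ventricles. All 3 OE values lay more than 0.9 below the lowest CTRL value. The change was -1.35 ± 0.14, or 2.55-fold lower (limma adjusted p = 0.000812), the largest fall among the members. Dsg2 read -0.36, -0.54 and -0.33 in OE ventricles, against 0.43, 0.69 and 0.27 in CTRL ventricles, with no overlap. It was 1.83-fold lower (-0.87 ± 0.12, limma adjusted p = 0.0019), and each of its 6 probe sets was called lower when taken alone, by 0.38 to 1.27 on the log2 scale.

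Jup encodes plakoglobin, the armadillo protein that joins the cadherin tails to the rest of the plaque and is shared with the adherens junction. It read 0.43, 0.38 and 0.60 in OE ventricles, against -0.45, -0.38 and -0.46 in CTRL ventricles. The groups did not overlap, and Jup was 1.86-fold higher (0.89 ± 0.08, limma adjusted p = 0.000465). This value rests on 1 probe set, of the kind marked as possibly shared with other transcripts. Pkp2, plakophilin, which links plakoglobin and the cadherins to desmoplakin, read 0.18, 0.16 and 0.32 in OE ventricles, against -0.18, -0.17 and -0.39 in CTRL ventricles. It was 1.38-fold higher (0.47 ± 0.09, limma adjusted p = 0.0073), and 3 of its 4 probe sets were called alone.

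Desmoplakin (Dsp), which anchors desmin to the plaque, read -0.12, -0.09 and -0.11 in OE ventricles and 0.11, 0.30 and 0.09 in CTRL ventricles. Its fall of 0.27 ± 0.08 passed the test (limma adjusted p = 0.037) but is the least steady call in the desmosome: none of its 3 probe sets passed alone, and the call was lost when any single array other than CTRL 3 was left out. The related armadillo protein Pkp4 overlapped between the groups (0.13 ± 0.13, adjusted p = 0.48). Within each array, Dsc2 minus Dsg2 was -0.28, 0.06 and -0.68 in OE ventricles, against 0.28, 0.07 and 0.19 in CTRL ventricles, a shift of -0.48. The groups were separated by only 0.01, between OE 2 and CTRL 2, and the exact permutation test gave p = 0.1, which is the smallest p that 3 arrays against 3 allow.

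Among 12 measured genes of a wider desmosome and intermediate filament list, 1 rose and 2 fell, beside 26.7% of all genes called. The 4 other desmosomal cadherins measured there were not called, at -0.04 for Dsg1a, 0.05 for Dsg1b, -0.11 for Dsc1 and -0.16 for Dsc3 (adjusted p of 0.25 or more). Des, the desmin filament itself, rose by 0.47 ± 0.08 (limma adjusted p = 0.0063). Ppl, periplakin, which like desmoplakin belongs to the plakins, fell by 0.91 ± 0.10, and the plakophilin Pkp1 fell by 0.30 ± 0.09. Cardiomyocyte markers moved at the same time: 7 of 12 were lower and 1 higher, with a mean of -0.23 to -0.17 on the OE arrays and 0.13 to 0.23 on the CTRL arrays. The fall was 1.31 for Myh6, the alpha cardiac myosin heavy chain whose promoter also drives the Cre, 0.75 for the myosin light chain Myl3 and 0.65 for phospholamban (Pln). The marker that rose was Mybpc3, by 0.28, and Actc1, Tnnt2, Casq2 and Mb were not called. The part of these shifts in the junction values was not tested.

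**Figure D2:**
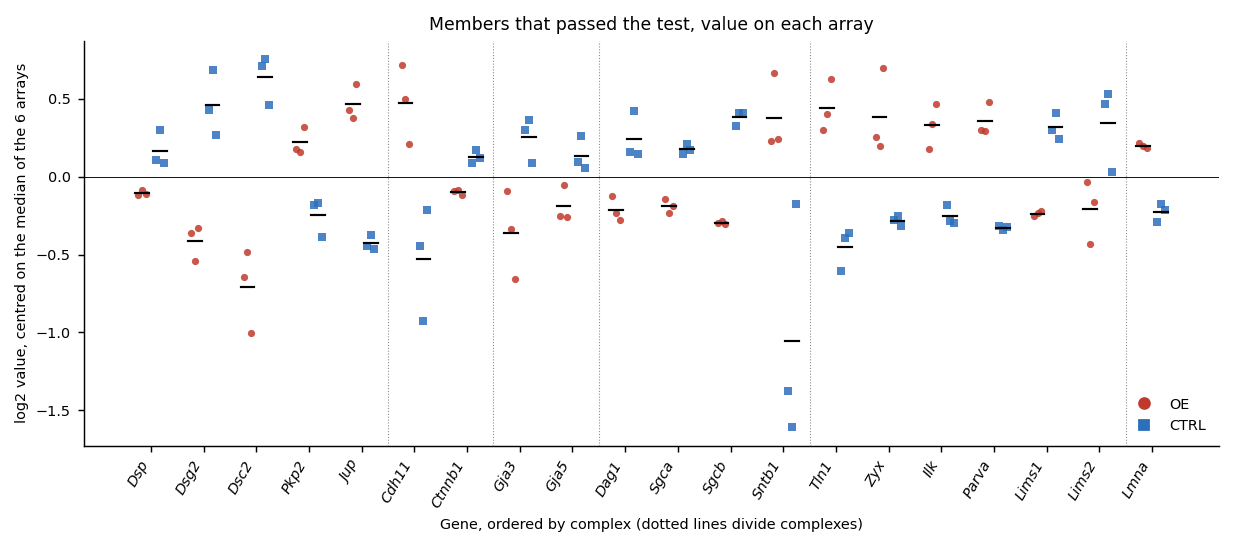
The log2 value of the 20 members that passed the test on each array, relative to the median of the 6 arrays; red circles are the 3 OE arrays, blue squares to their right the 3 CTRL arrays, and black lines the group means. The groups do not overlap for any gene shown, the narrowest margins being those of Lims2 and Gja5, and CTRL 3 stands apart from the other CTRL arrays for Sntb1 at -0.17.

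In the adherens group, the gene averages of Cdh2 and the catenins Ctnna1, Ctnna3, Ctnnb1 and Ctnnd1 changed by at most 0.22 in either direction. Plakoglobin (Jup), counted above with the desmosome, rose by 0.89. Single probe sets of Ctnna3 and Ctnnb1 were called at -0.72 and -0.53. Of the 8 members in the adherens group, which includes a tight junction scaffold and a receptor of the disc, 1 rose and 1 fell. Among all genes, 26.7% were called in either direction. Cdh2, N-cadherin, the cadherin of the cardiomyocyte adherens junction, read -0.05, -0.05 and -0.03 in OE ventricles, against 0.05, 0.08 and 0.11 in CTRL ventricles. The OE values were all below the CTRL values, but the difference was only -0.12 ± 0.06 (adjusted p = 0.18). Cdh11, a cadherin of mesenchymal cells such as fibroblasts, was the member that rose. It read 0.72, 0.50 and 0.21 in OE ventricles, against -0.45, -0.93 and -0.21 in CTRL ventricles. The groups did not overlap, although OE 3 and CTRL 3 were the closest to each other, and Cdh11 was 2.01-fold higher (1.00 ± 0.19, limma adjusted p = 0.0086). Both of its probe sets were called, at 0.58 and 1.43.

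Fibroblast markers also differed between the groups. Of 10 such genes, 5 were higher and 1 lower, with a mean of 0.17 to 0.36 on the OE arrays and -0.58 to -0.19 on the CTRL arrays. Periostin (Postn) changed by 2.66, and the collagens Col3a1 and Col1a2 by 1.43 and 1.29. Pdgfra, Dcn, Tcf21 and Thy1 were not called, and Dpt changed by -0.31. Whether the share of fibroblasts differed, and its part in the rise of Cdh11, was not tested. The difference of Cdh11 minus Cdh2 within an array was 0.76, 0.55 and 0.25 in OE ventricles and -0.49, -1.01 and -0.32 in CTRL ventricles, a shift of 1.12 with no overlap (exact permutation test, p = 0.1).

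Among the catenins, which carry the cadherin's pull to actin, Ctnnb1 (beta-catenin) fell slightly. It read -0.09, -0.08 and -0.12 in OE ventricles and 0.09, 0.17 and 0.12 in CTRL ventricles, a change of -0.22 ± 0.06 (limma adjusted p = 0.034). That call was lost whichever array was left out, and 1 of its 3 probe sets (-0.53) passed alone while the others changed by -0.11 and -0.02. Neither alpha-catenin, which binds actin, was called. Ctnna1, the widespread alpha-catenin, had no overlap and a change of 0.20 ± 0.08 (adjusted p = 0.091), which became -0.016 with the ribosomal centring, and 1 of 4 probe sets was called. Ctnna3, the alpha-catenin best known from heart and testis, overlapped at -0.20 ± 0.10 (adjusted p = 0.16), and its 2 probe sets disagreed, one at -0.72, which passed, and one at 0.31, which did not. Ctnna3 minus Ctnna1 was -0.33, -0.21 and -0.08 in OE ventricles, against 0.14, 0.06 and 0.39 in CTRL ventricles, a shift of -0.40 without overlap (exact permutation test, p = 0.1).

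The other genes of this group overlapped between the groups. Ctnnd1, the p120 catenin that holds cadherins at the surface, changed by -0.09 with a 95% interval of -0.28 to 0.10. Tjp1, a scaffold that borders the gap junction plaque, changed by -0.01 with an interval of -0.21 to 0.19. Cxadr, the coxsackievirus and adenovirus receptor, an adhesion protein of the disc, changed by -0.20 with an interval of -0.52 to 0.12, and 1 of its 5 probe sets was called, at -0.39. The intervals of Ctnnd1 and Tjp1 leave out a change of 0.3 in either direction.

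In a wider list of 28 measured cadherin, catenin, nectin and ankyrin genes, 5 rose and 3 fell, beside 26.7% of all genes called. The rises were 0.65 for the catenin-like Ctnnal1, 0.59 for Ank3, an ankyrin that gathers sodium channels and plakophilin at the disc, and 0.45 and 0.32 for the adhesion proteins Nectin2 and Nectin3. The 3 falls were 0.37 for Jam2 and 0.36 each for Ank2, an ankyrin of the transverse tubules, and Cdh5, the cadherin of endothelial cells. Of the endothelial markers 5 of 10 fell, with a mean of -0.16 to 0.01 on the OE arrays and 0.10 to 0.39 on the CTRL arrays, and their part in the values of Jam2 and Cdh5 was not tested.

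The gap junction members with a call both fell, and the main ventricular connexin was not among them. Of 4 measured members, 2 fell, beside 26.7% of all genes called. Gja1 encodes connexin43, which forms most gap junction channels between ventricular cardiomyocytes. It read -0.08, 0.16 and -0.28 in OE ventricles, against 0.14, -0.19 and 0.03 in CTRL ventricles. The arrays of the groups were interleaved, with the highest value on OE 2 and the lowest on OE 3. The change was -0.06 ± 0.13 with a 95% interval of -0.36 to 0.24 (limma adjusted p = 0.76), and the 6 probe sets changed by -0.45 to 0.18, with an adjusted p of at least 0.12 each. A fall of 1.25-fold in Gja1 therefore lies within this interval.

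Gja5 encodes connexin40, the connexin of atrial muscle, the conduction system and arterial endothelium. It read -0.26, -0.06 and -0.26 in OE ventricles and 0.09, 0.26 and 0.06 in CTRL ventricles. The groups were separated by 0.11, and Gja5 was 1.25-fold lower (-0.33 ± 0.09, limma adjusted p = 0.031). Gja3, whose connexin46 is best known from the lens, read -0.09, -0.33 and -0.66 in OE ventricles and 0.30, 0.37 and 0.09 in CTRL ventricles. It was 1.53-fold lower (-0.61 ± 0.15, limma adjusted p = 0.019), with both probe sets called. Neither call held without CTRL 1 or without CTRL 2, and that of Gja5 was also lost without OE 1 or OE 3; over all alternatives the adjusted p reached 0.1004 for Gja5 and 0.104 for Gja3. Of the 10 endothelial markers described above, 5 fell and 5 were not called, among them Vwf, which changed by 0.26. Of 6 atrial markers, 4 were higher and 0 lower, while Bmp10 and Stard10 were not called. The part of endothelial cells in the value of Gja5, and its relation to the atrial markers, was not tested. Gjc1, connexin45 of nodal and embryonic myocardium, overlapped at 0.15 ± 0.10 (adjusted p = 0.31).

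Set against Gja1 within each array, Gja5 was -0.18, -0.21 and 0.02 in OE ventricles and -0.05, 0.45 and 0.03 in CTRL ventricles, and Gjc1 was 0.31, -0.12 and 0.26 in OE ventricles and -0.39, 0.24 and -0.02 in CTRL ventricles. Both differences overlapped between the groups (exact permutation test, p = 0.2 and 0.5). Of 13 other measured connexin and pannexin genes, Panx1, which forms membrane channels that release ATP, passed the test with a rise of 1.02 ± 0.16 (limma adjusted p = 0.0038). Its values were 0.47, 0.25 and 0.44 in OE ventricles and -0.25, -0.87 and -0.79 in CTRL ventricles, with no overlap.

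In the dystrophin complex, dystroglycan and 2 of the sarcoglycans fell, and dystrophin itself was not called. Of 12 measured members, 3 fell (Sgcb, Dag1 and Sgca) and 1 rose (Sntb1), beside 26.7% of all genes called. Dmd encodes dystrophin, the rod that joins actin to the complex. It read -0.13, -0.03 and 0.06 in OE ventricles, against 0.08, 0.10 and -0.08 in CTRL ventricles. The groups overlapped, the change was -0.07 ± 0.08 with a 95% interval of -0.26 to 0.12 (adjusted p = 0.54), and 1 of 4 probe sets passed alone, at -0.28. Utrn, utrophin, the relative of dystrophin that can take its place in muscle, read 0.11, 0.15 and 0.02 in OE ventricles, against -0.11, -0.08 and -0.12 in CTRL ventricles. All OE values were above the CTRL values, but the change of 0.20 ± 0.07 missed the threshold (adjusted p = 0.061), and it came mainly from 1 of 3 probe sets, which was called at 0.46. Utrn minus Dmd was 0.24, 0.18 and -0.03 in OE ventricles and -0.20, -0.18 and -0.05 in CTRL ventricles, so that OE 3 and CTRL 3 were 0.01 apart (exact permutation test, p = 0.1).

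Dag1 encodes dystroglycan, the laminin receptor of the complex. It read -0.12, -0.23 and -0.28 in OE ventricles and 0.16, 0.42 and 0.15 in CTRL ventricles. It was 1.37-fold lower (-0.45 ± 0.09, limma adjusted p = 0.011), and each of its 4 probe sets was called lower, by 0.34 to 0.55. The sarcoglycans surround dystroglycan in the membrane, and 2 of the 4 fell. Sgcb was the most uniform of them, at -0.30, -0.29 and -0.30 in OE ventricles, against 0.33, 0.41 and 0.41 in CTRL ventricles. It was 1.60-fold lower (-0.68 ± 0.06, limma adjusted p = 0.00052), with each of 3 probe sets called. Sgca, whose product is found in striated muscle, read -0.15, -0.23 and -0.19 in OE ventricles and 0.15, 0.21 and 0.17 in CTRL ventricles, 1.29-fold lower (-0.36 ± 0.06, limma adjusted p = 0.0061).

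The other sarcoglycans were not called. Sgcd lay above CTRL in all 3 OE ventricles by a mean of 0.19 ± 0.07 (adjusted p = 0.082), and Sgce, the widespread relative of Sgca, overlapped at 0.08 ± 0.10. Sgce minus Sgca was 0.34, 0.16 and 0.33 in OE ventricles, against -0.01, -0.22 and -0.27 in CTRL ventricles. That is a shift of 0.44 without overlap (exact permutation test, p = 0.1). Sspn, sarcospan, which sits with the sarcoglycans, overlapped at -0.16 ± 0.12, with its lowest value (-0.38) on OE 3.

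Sntb1, a syntrophin adaptor on the inner side of the complex, had the largest rise and also the widest spread. It read 0.23, 0.67 and 0.24 in OE ventricles, against -1.38, -1.61 and -0.17 in CTRL ventricles. CTRL 3 lay near the OE arrays and far above CTRL 1 and CTRL 2. The change was 1.43 ± 0.34, or 2.70-fold (limma adjusted p = 0.019), and it ranged from 1.15 to 1.87 when single arrays were left out; without OE 2, CTRL 1 or CTRL 2 the call was lost. Of its 6 probe sets, 4 rose, by 1.56 to 2.89, with the same 2 low CTRL arrays in each. One of these 4 read 0.41, 1.14 and 0.37 in OE ventricles, against -2.97, -3.41 and -0.37 in CTRL ventricles. The remaining probe sets changed by 0.08 and -0.13 and were not called. The gene spans chr15:55636388-55907302 in GRCm38.p6, and where within it each probe set lies is not given in the sources used here.

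The other adaptors changed less. The second beta-syntrophin, Sntb2, overlapped at -0.01 with an interval of -0.17 to 0.15, and its difference from Sntb1 within an array was -0.24, -0.61 and -0.22 in OE ventricles and 1.35, 1.62 and 0.30 in CTRL ventricles (exact permutation test, p = 0.1). Dtna, alpha-dystrobrevin, which binds dystrophin and the syntrophins, read 0.14, 0.01 and 0.24 in OE ventricles and -0.17, -0.04 and -0.14 in CTRL ventricles. The groups did not overlap, the change was 0.25 ± 0.08 (adjusted p = 0.060), and 2 of 7 probe sets were called, at 0.53 and 0.60. Dtnb, beta-dystrobrevin, overlapped at -0.04 ± 0.06, and Dtnb minus Dtna shifted by -0.28 without overlap (exact permutation test, p = 0.1).

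Of 20 measured genes that glycosylate dystroglycan or work beside the complex, 4 rose and 1 fell, against 26.7% of all genes called. Dysf, dysferlin, which takes part in membrane repair in muscle, read 0.52, 0.76 and 0.65 in OE ventricles and -0.52, -0.69 and -0.68 in CTRL ventricles. It was 2.42-fold higher (1.27 ± 0.09, limma adjusted p = 0.000188), a larger change than that of any dystrophin complex member other than Sntb1. The rises among genes of the dystroglycan sugar chain were smaller, Rxylt1 by 0.38, Pomgnt1 by 0.35 and Dpm2 by 0.32, and Large2, which extends that chain, fell by 0.41.

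**Figure D3:**
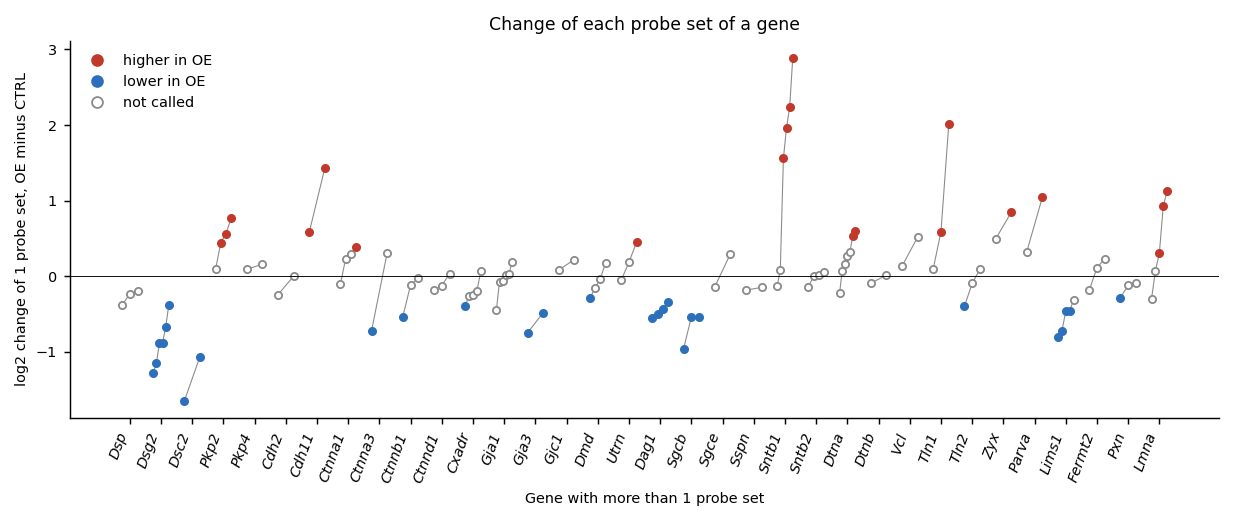
The log2 change (OE minus CTRL) of every probe set of the 34 members that have more than 1, each point 1 probe set and each line 1 gene, filled red or blue where it passed the test over all probe sets and open where it did not. The probe sets of Dsg2, Dag1 and Sgcb lie on 1 side of 0, while those of Sntb1 run from -0.13 to 2.89 and those of Lmna from -0.30 to 1.13.

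The costamere and focal adhesion group held the largest number of rises. Of 10 measured members, 4 rose (Tln1, Parva, Zyx and Ilk) and 2 fell (Lims1 and Lims2). Among all genes, 14.9% were called higher and 11.8% lower. The median of the group was 0.19, and -0.03 with the ribosomal centring, so its sign depended on the scaling. Talin joins integrin tails to actin. Tln1, the widespread talin, read 0.30, 0.40 and 0.63 in OE ventricles, against -0.61, -0.39 and -0.36 in CTRL ventricles. It was 1.86-fold higher without overlap (0.90 ± 0.11, limma adjusted p = 0.0013), and its 3 probe sets changed by 2.01, 0.59 and 0.10, of which the first 2 passed. Tln2, the talin that prevails in mature heart muscle, overlapped at -0.13 ± 0.07 (adjusted p = 0.20). Tln2 minus Tln1 was -0.42, -0.40 and -0.79 in OE ventricles, against 0.60, 0.48 and 0.41 in CTRL ventricles. The shift of -1.03 was 0.8 or more between any OE and any CTRL array (exact permutation test, p = 0.1).

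The members of the complex of Ilk, a pseudokinase that binds integrin beta tails, parvin and PINCH moved in opposite directions. Ilk read 0.18, 0.34 and 0.47 in OE ventricles and -0.18, -0.28 and -0.30 in CTRL ventricles, 1.499-fold higher (0.58 ± 0.09, limma adjusted p = 0.0033). Parva, alpha-parvin, read 0.30, 0.29 and 0.48 in OE ventricles and -0.32, -0.34 and -0.32 in CTRL ventricles, 1.61-fold higher (0.68 ± 0.07, limma adjusted p = 0.000902). The PINCH adaptors fell. Lims1 read -0.25, -0.23 and -0.22 in OE ventricles and 0.30, 0.41 and 0.24 in CTRL ventricles, 1.47-fold lower (-0.55 ± 0.07, limma adjusted p = 0.0015), with 4 of 5 probe sets called. Lims2 read -0.03, -0.43 and -0.16 in OE ventricles and 0.47, 0.53 and 0.03 in CTRL ventricles, also 1.47-fold lower. Its error was larger (-0.55 ± 0.15, limma adjusted p = 0.032), OE 1 and CTRL 3 were only 0.07 apart, and the call was lost in 5 of the alternatives. The 2 PINCH genes did not separate, with a mean of Lims2 minus Lims1 of 0.03 in both groups (exact permutation test, p = 1.0).

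Zyx, zyxin, which gathers at actin filaments under tension, read 0.26, 0.20 and 0.70 in OE ventricles and -0.28, -0.25 and -0.32 in CTRL ventricles. It was 1.59-fold higher (0.67 ± 0.13, limma adjusted p = 0.0086), and OE 3 was the highest array in both of its probe sets. Vcl, vinculin, which strengthens talin and alpha-catenin on actin, read 0.15, -0.12 and 0.23 in OE ventricles and -0.40, 0.12 and -0.44 in CTRL ventricles. CTRL 2 lay among the OE arrays, and the change of 0.32 ± 0.16 was not called (adjusted p = 0.17); without CTRL 2 it was 0.50 with an adjusted p of 0.029. Fermt2, the kindlin of muscle, overlapped at 0.05 ± 0.10, and the adaptor Pxn, paxillin, at -0.16 ± 0.08, with 1 of 3 probe sets called at -0.28.

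A wider list of 36 measured costamere and focal adhesion genes also moved in both directions, with 13 higher and 6 lower. Among all genes, 26.7% were called in either direction. Pdlim3 and Pdlim5, PDZ and LIM proteins of the Z-disc, rose by 1.77 ± 0.34 and 1.32 ± 0.09, the actin crosslinkers Actn1 and Flnc by 0.88 ± 0.07 and 0.84 ± 0.21. The largest falls were 0.56 for Plec, plectin, 0.54 for Nexn, nexilin, 0.43 for the LIM protein Fhl2 and 0.37 for Parvb, the second parvin. Tln1, Zyx and Actn1 are made by many cell types. Smooth muscle and pericyte markers were split, with 4 of 8 higher, 3 lower and a median change of 0.14. Their mean was 0.21 to 0.35 on the OE arrays and -0.51 to -0.11 on the CTRL arrays. Cnn1, calponin, changed by 4.94 and Acta2 by 1.08, but Kcnj8 by -0.72, Rgs5 by -0.71 and the smooth muscle myosin Myh11 by -0.34. Of 10 macrophage markers, 5 were higher and 0 lower, with Cd14 at 1.10, while Csf1r, Lyz2, Cx3cr1, Mrc1 and Fcgr1 were not called. The mean of the 10 markers was 0.09 to 0.39 on the OE arrays and -0.41 to -0.13 on the CTRL arrays. The part of these cell types in the rises of Tln1, Zyx and Actn1 was not tested.

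Lmna, which encodes the A-type lamins that join the nucleus to the cytoskeleton, read 0.22, 0.20 and 0.18 in OE ventricles, against -0.29, -0.18 and -0.22 in CTRL ventricles. It was 1.35-fold higher (0.43 ± 0.06, limma adjusted p = 0.0033). Its 5 probe sets did not move as one, since 3 rose, by 0.31, 0.93 and 1.13, and the other 2 changed by 0.08 and -0.30 without passing. Of 14 other genes of the lamina and nuclear envelope, 1 rose and 1 fell, beside 26.7% of all genes called. Banf1, which binds chromatin to the envelope, rose by 0.40. Sun2, an inner membrane protein that reaches the cytoskeleton, fell by 0.32.

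Taking every probe set alone, 22 of the 120 member probe sets were higher and 30 lower, which is 43.3%, beside 24.4% of all 34945 probe sets. Of the 15 called members with more than 1 probe set, 6 had every probe set called in the direction of the gene (Dsg2, Dsc2, Cdh11, Gja3, Dag1 and Sgcb). Among all 20 called members, 11 kept their call in each alternative that gave the gene a value, single probe sets aside: Dsg2, Dsc2, Pkp2, Jup, Sgca, Sgcb, Tln1, Ilk, Parva, Lims1 and Lmna. The other 9 lost it in at least 1, and for Cdh11, Dag1 and Zyx that was the one-way analysis of variance named in the study's methods alone, with adjusted p of 0.077, 0.061 and 0.068.

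**Figure D4:**
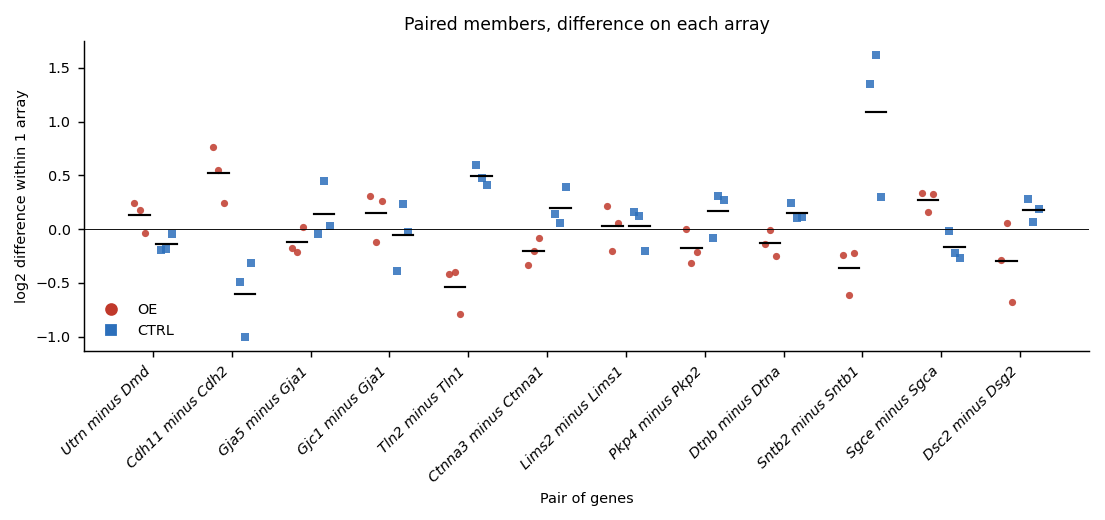
The log2 difference between 2 related members within an array for the 12 pairs compared; red circles are the OE arrays, blue squares the CTRL arrays and black lines the group means. In 8 pairs the arrays do not overlap between the groups, and Tln2 minus Tln1 is the one with the widest clear space between them, -0.40 at most in OE and 0.41 at least in CTRL.

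In all, 12 pairs of related members were compared within arrays, which removes the scaling of the array. For 8 of them the OE and CTRL arrays did not overlap. Among all single genes 45.6% did not overlap, and no such share was computed over other pairs. Several of the 8 pairs hold a gene that was itself called, namely Cdh11, Tln1, Sntb1, Sgca, Dsc2 or Dsg2. The exact permutation test cannot go below p = 0.1 with 3 arrays against 3, and adjusted over the 12 pairs these 8 had p = 0.15 and the rest 0.24 or more, so no pair passed. Pkp4 minus Pkp2 was -0.003, -0.31 and -0.21 in OE ventricles and -0.08, 0.31 and 0.28 in CTRL ventricles, with CTRL 1 among the OE arrays (exact permutation test, p = 0.2).

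**Figure D5:**
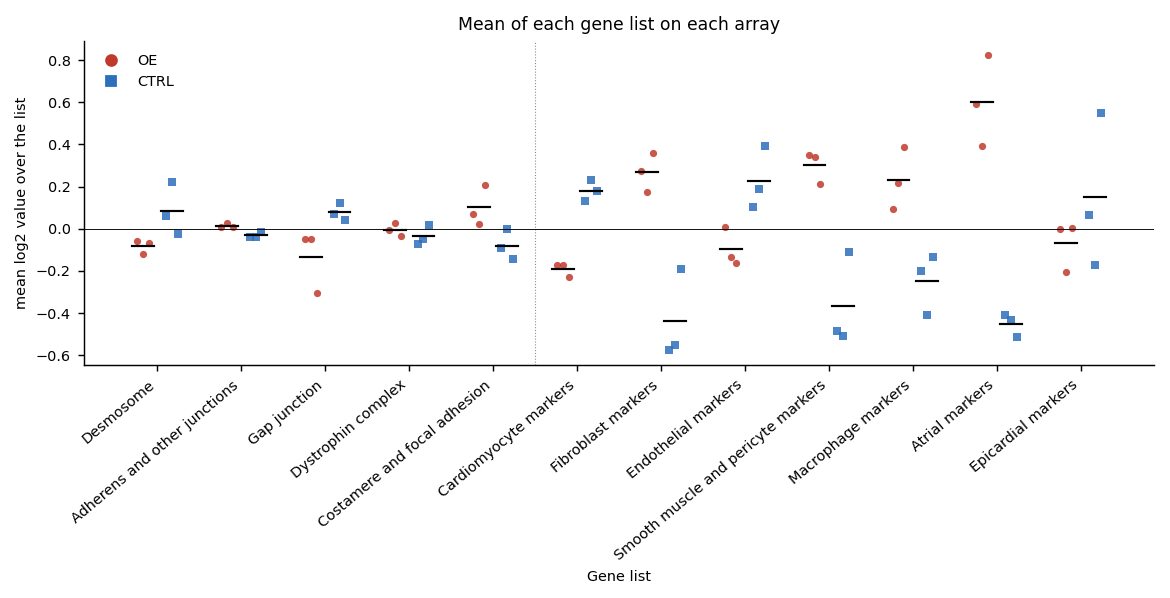
The mean log2 value of each list of members (left of the dotted line) and of each list of cell type markers (right of it) on every array; red circles are OE, blue squares CTRL and black lines the group means. The dystrophin complex has means of -0.03 to 0.03 in OE and -0.07 to 0.02 in CTRL, while the atrial markers lie between 0.39 and 0.82 in OE and between -0.51 and -0.41 in CTRL.

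The means of whole complexes hid these opposite changes. The desmosome averaged -0.12 to -0.06 on the OE arrays and -0.02 to 0.22 on the CTRL arrays, with Jup and Pkp2 on one side and Dsc2 and Dsg2 on the other. Atrial markers, among them the atrial myosin light chains Myl4 and Myl7 (2.56 and 1.10) and Dkk3 (1.89), were higher for 4 of 6 genes.

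COUP-TFII belongs to the nuclear receptors, which bind the half-site AGGTCA, often as a direct repeat, and the sequences are shown to place that motif beside the values of the members that carry it. RefSeq (GRCm38.p6) promoters, from 250 bases before to 50 after a transcript start, were matched for 25 of the 43 members. The half-site AGGTCA, searched on both strands, was found in at least 1 promoter of 6 of these genes (24.0%), beside 18.1% of 27025 genes. The members have more promoters per gene, and counted per promoter the share was 14.6% of their 41, beside 16.3% of all 32851. A direct repeat of AGGTCA with 1 base between the copies and up to 2 mismatches was found in 2 genes (8.0%), beside 4.4% of genes, or in 4.88% of the members' promoters, beside 3.86% of all, and the repeat in Zyx overlaps its half-site. Only Zyx and Lmna among the 6 were called, and Dtnb holds the half-site after its start. The stretches below run 5′ to 3′ on the strand of the gene, with the motif in capitals and its reverse complement shown where it lies on the other strand. They are Zyx at chr6:42349746-42349774 (plus strand, direct repeat), Lmna at chr3:88493514-88493535 (minus strand), Utrn at chr10:12861868-12861889 (minus strand), Ctnna3 at chr10:63457451-63457472 (plus strand) and Ctnnd1 at chr2:84650811-84650832 and, for its direct repeat, chr2:84659099-84659191 (minus strand).
Zyx: ggtggggtAGGTGGCAGGTCAggaaatga
Lmna: gaagtttaAGGTCAttcttgac
Utrn: tcagcctcTGACCTccacgtgc
Ctnna3: tgtcagtgAGGTCAgcgcggag
Ctnnd1: attggataAGGTCAgctccctg
Ctnnd1, direct repeat: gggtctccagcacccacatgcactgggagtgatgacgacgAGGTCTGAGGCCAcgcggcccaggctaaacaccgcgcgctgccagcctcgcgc
The stretches of Zyx, Lmna, Utrn and Ctnna3 and the shorter one of Ctnnd1 lie within the RefSeq span of the gene, before the start of one of its transcripts. The motif begins 74 bases before the start in Zyx and 215 bases before it in Lmna, which were higher by 0.67 and 0.43, and 146, 52 and 84 bases before it in Utrn, Ctnna3 and Ctnnd1, which were not called. No binding was measured on these arrays.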

How the data were processed

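Ventricular RNA of 3 OE and 3 CTRL mice was hybridised to Affymetrix mouse genome arrays. The deposited log2 values were made by the authors in GeneSpring GX with RMA summarisation (version not given in the sources used here), quantile normalisation and a baseline at the median of all samples, and they ran from -4.29 to 3.54. The depth of a sequencing library does not apply, and the number of arrays limits the precision. Of 45101 probe sets, 34945 named exactly 1 gene in the platform annotation, 932 named several, 9160 none and 64 were array controls. Symbols were updated through Entrez identifiers to RefSeq GRCm38.p6, where 162 identifiers had no match and kept the file's symbol.

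Probe sets were averaged per gene, and OE was compared with CTRL with limma 3.58.1 in R 4.3.3 (lmFit and eBayes, Benjamini-Hochberg over 18193 genes, threshold 0.05). The script was tested on simulated data. Whether the mice of a group were littermates is not given in the sources used here, and the p-values measure the spread between these arrays. Pairs of related members were compared by an exact two-sided permutation test over the 6 arrays. Every measured member is named, with up to 4 called genes per direction of each wider list. Of each marker list, up to 3 called genes with large changes are named, with some that went the other way or were not called. The members and lists were chosen with earlier results of these data known. Alternatives were the one-way analysis of variance named in the methods, array weights, other probe set summaries, centring on ribosomal protein genes or the array median, a replicate block, each array left out and each probe set alone. Replicate numbers did not pair the arrays (correlations of deviations 0.07, -0.12 and 0.03).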

Additional observations from a re-analysis of the deposited data

How the results depend on the processing

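The limits are those of 3 arrays a group, of values without a level and of several probe sets a gene. With the one-way analysis of variance, 6 members were higher and 7 lower, and 1437 genes were higher and 1125 lower; in the adherens group 0 were higher and 2 lower, in the gap junction 0 lower, in the dystrophin complex 0 higher and in the costamere group 1 lower. Centred on ribosomal protein genes, 21 members and 9217 genes were lower and 1306 genes higher, the median of the members was -0.26, and the adherens group had 5 lower, the dystrophin complex 7 and the costamere group 4. Without probe sets marked as shared, 1 desmosome member was higher, since Jup then had no value. With the probe set of largest variance, the median of the members was -0.090, 2 adherens members were lower and 3 dystrophin complex members higher. With the replicate block, 9 members were higher and 9 lower and no adherens member was lower (0), but the numbers share only a label. Leaving out each array in turn gave 6 to 10 members lower and 1243 to 1731 genes lower, and in the adherens group 1 to 2 higher and 0 to 0 lower, in the gap junction 0 to 2 lower, in the dystrophin complex 0 to 1 higher and in the costamere group 1 to 2 lower. The lower count of members was 6 without CTRL 1 or without CTRL 2. One probe set each of Sntb1 (-0.13) and Lmna (-0.30) ran against its gene. Of the 25 members with a promoter sequence, 8.0% had the direct repeat and 24.0% the half-site in at least 1 promoter. The cause of these differences was not tested.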
